A study of Mus musculus with 6 samples.

Results

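The interferon regulatory factor (IRF) genes were followed in RNA from flow-sorted splenic marginal zone B cells, the B cell subset at the border of the white pulp. The members were the rows of the deposited gene table whose Ensembl identifier is named Irf1, Irf2, Irf3, Irf4, Irf5, Irf7, Irf8 or Irf9 in GENCODE M21, and all 8 were found among the 14864 genes of the table. The comparison was between 3 libraries labelled WT and 3 labelled CK2α-cKO (cKO below). The latter were from mice with a conditional knockout of CK2α, a catalytic subunit of the kinase CK2. Both groups came from spleens of C57BL/6 mice of 8 weeks. The sources used here do not give the promoter that drives the recombinase, the deleted exons or the cells that lose them. The labels number the libraries but do not tie each to its own mouse, so p-values measure the spread between libraries, which may be technical in part.

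IRF proteins share an amino-terminal DNA-binding domain that recognises GAAA repeats, the core of the interferon-stimulated response element (ISRE). IRF3, IRF5 and IRF7 lie latent until sensors of foreign nucleic acid cause their phosphorylation, after which they switch on interferon and cytokine genes. IRF9 is the DNA-binding subunit of ISGF3, the complex that carries the type I interferon signal to the ISRE, and Irf7 is itself a target of it. IRF1 activates and IRF2 mostly represses genes through the same element. IRF4 and IRF8 are the lymphoid and myeloid members. In B cells IRF4 rises with the strength of antigen receptor signalling and drives plasma cell formation, and both bind composite sites with the Ets factors PU.1 and SPIB.

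The 250 bases before the annotated start are shown for the members that changed most, Irf7 and Irf4, and for Irf1 and Irf2, whose windows held the best-known elements of the family's own control. They come from RefSeq (GRCm38.p6), where all 8 members matched, with 11 windows of 300 bases (250 before to 50 after a start) in all. Capitals mark letters that match 1 of 5 motifs searched on both strands: the ISRE (GAAA, any 2 bases, GAAA), the gamma-activated sequence (TTCNNNGAA), the Ets-IRF composite element (GGAA, any 2 bases, GAAA), the NF-κB consensus and the TATA box (TATAAA).
Irf7, chr7:141266425-141266674, minus strand: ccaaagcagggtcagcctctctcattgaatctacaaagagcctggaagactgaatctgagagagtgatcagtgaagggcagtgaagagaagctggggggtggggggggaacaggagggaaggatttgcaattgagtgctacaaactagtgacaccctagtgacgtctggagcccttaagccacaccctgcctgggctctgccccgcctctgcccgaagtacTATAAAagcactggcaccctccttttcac
Irf4, chr13:30748983-30749232, plus strand: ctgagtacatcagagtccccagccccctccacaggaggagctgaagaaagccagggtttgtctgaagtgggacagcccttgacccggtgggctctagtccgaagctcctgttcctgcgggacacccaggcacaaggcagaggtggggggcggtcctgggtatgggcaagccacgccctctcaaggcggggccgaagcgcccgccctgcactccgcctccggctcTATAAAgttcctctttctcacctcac
Irf1, chr11:53769764-53770013, plus strand: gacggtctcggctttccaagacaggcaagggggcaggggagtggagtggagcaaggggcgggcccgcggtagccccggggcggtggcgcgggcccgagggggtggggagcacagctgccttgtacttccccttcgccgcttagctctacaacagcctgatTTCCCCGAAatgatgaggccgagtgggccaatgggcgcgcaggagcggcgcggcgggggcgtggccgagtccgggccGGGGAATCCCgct
Irf2, chr8:46739495-46739744, plus strand: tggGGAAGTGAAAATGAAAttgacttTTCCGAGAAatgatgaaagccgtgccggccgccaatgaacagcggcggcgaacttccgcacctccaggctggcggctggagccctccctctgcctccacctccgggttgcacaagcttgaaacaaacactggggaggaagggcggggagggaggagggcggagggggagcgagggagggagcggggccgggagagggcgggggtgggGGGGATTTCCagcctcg
The ISRE letters occurred in the window of Irf2, first base 241 bases before the start, where they overlapped a composite element, and in no window of another member. They occurred in 3.44% of the 32851 windows of all genes. The gamma-activated sequence was in windows of Irf1, Irf2 and Irf8 (8.3% of all windows) and the NF-κB consensus in those of Irf1 and Irf2 (8.46%). The composite element was in that of Irf2 alone (2.72%). TATAAA lay 26 to 31 bases before the starts of Irf4, Irf7 and Irf8 (13.6% of all windows). These are letters in short windows, and binding was not measured.

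The libraries held 18778776 to 23503756 reads, recovered from the deposited values, which are read counts divided by 1 factor per library (normalised reads below). The least-read member library, Irf7 in WT replicate 2, had 540 reads, a counting error of 4.3%, and the fewest reads of the other members gave 0.995% (Irf8) to 2.143% (Irf2). Csnk2a1, the targeted gene, was not lower in cKO (3957 ± 105 in WT, 4045 ± 87.6 in cKO, SD, n = 3 each), and a gene-level value does not resolve a deleted exon, so each direction is that of the libraries as labelled. Pan-B-cell genes were high in every library (summed level 173895 to 185844 normalised reads over 7 genes), Cr2, a complement receptor abundant on marginal zone B cells, was at 65812 ± 2121 in WT and 69586 ± 8713 in cKO. Of 11 T and NK cell markers 4 were in the table (Cd4, Cd8a, Lat and Klrb1c) and none was called, with a summed level of 79.04 to 110.5 in WT and 54.01 to 66.86 in cKO. Cd4 (23.03 ± 5.60 in WT, 13.32 ± 0.917 in cKO) and Cd8a (18.25 ± 4.92 and 7.86 ± 1.82) were lower in every cKO library than in any WT library. Of 12 marginal zone markers 5 rose, and of 7 follicular markers 3 fell. The follicular sum was 51083 to 56233 in WT and 39308, 54362 and 39689 in cKO replicates 1, 2 and 3. Red cell and platelet genes were highest in WT replicate 2 (summed level 11119) and cKO replicate 1 (5019), against 679.8 to 1399 in the other libraries.

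Of the 8 members, Irf7 and Irf9 rose, Irf4 fell, and 5 did not pass (limma on log2(value + 1), Benjamini-Hochberg adjusted p under 0.05 over the 14855 genes tested). All 8 members passed the filter on low values, a mean of 10. Of all genes tested, 10.1% were called, 5.08% rising and 4.97% falling. WT and cKO libraries were fully separated for 4 members, Irf3, Irf7 and Irf9 with cKO higher and Irf4 with cKO lower, against 31.6% of all genes (15.9% with cKO higher and 15.6% lower). At an unadjusted p under 0.05 the share of all genes was 26.8%, and edgeR called 9.92%, DESeq2 11.7% and limma with robust moderation 10.9%. The median log2 difference (cKO minus WT) was -0.03 over the members and -0.00086 over all genes. The counts varied with the libraries kept: leaving out each in turn gave 1 to 2 members that rose and 0 to 2 that fell. The share of all genes called was then 3.48%, 7.79% and 3.35% without WT replicates 1, 2 and 3, and 6.33%, 11.7% and 3.54% without cKO replicates 1, 2 and 3.

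**Figure D1:**
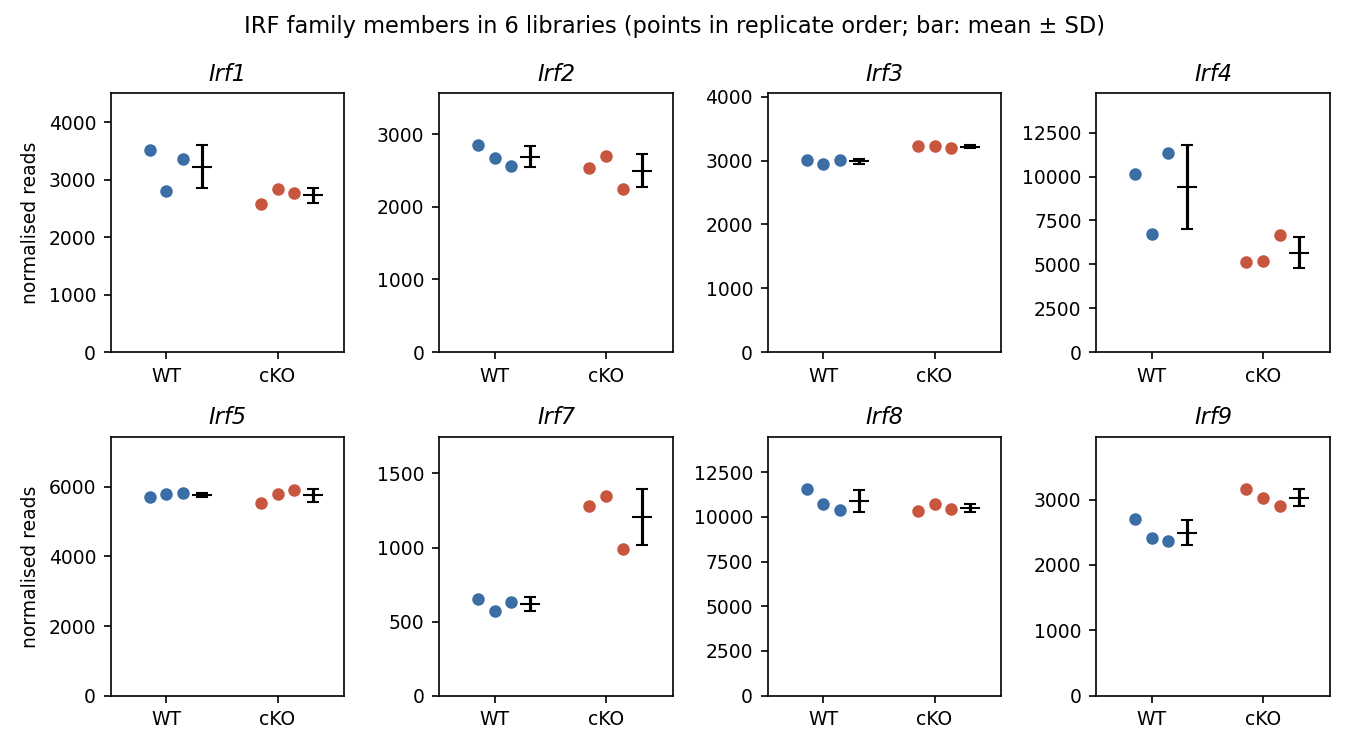
Normalised reads (vertical axes, from 0) of the 8 IRF genes in each library, WT in blue and cKO in red, with points in replicate order and a black bar for the mean ± SD of 3 libraries. Irf7 is at 569.1 to 655.6 in WT and 991.6 to 1349 in cKO, and in Irf4 the lowest WT library (6740) lies close to the highest cKO library (6693).

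Among the factors that nucleic acid sensors activate, Irf7 was called and Irf3 and Irf5 were not. Irf7 (ENSMUSG00000025498), which amplifies interferon production once it has been induced, stood at 655.6, 569.1 and 630.9 normalised reads in WT replicates 1, 2 and 3 and at 1281, 1349 and 991.6 in cKO replicates 1, 2 and 3. Every cKO library lay above every WT library, with cKO replicate 3 the lowest of its group. The log2 difference was 0.95 ± 0.11 (SE), a ratio of 1.94 with a 95% interval of 1.64 to 2.29 (limma adjusted p = 0.000748). It was between 0.87 and 1.09 with each library left out, and Irf7 was called in all 16 alternative fits.

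Irf3 (ENSMUSG00000003184), the constitutive factor behind the first wave of interferon-β, was at 3012, 2948 and 3017 in WT and 3231, 3233 and 3194 in cKO. The groups did not overlap, but the difference was small and did not pass (ratio 1.08, interval 0.999 to 1.16, limma adjusted p = 0.192). Irf5 (ENSMUSG00000029771), which acts downstream of TLR7 and TLR9 through MyD88, was at 5699, 5786 and 5815 in WT and 5537, 5791 and 5916 in cKO. Its groups overlapped and the ratio was 0.996, with an interval of 0.923 to 1.08. The sign of its log2 difference was not stable, since it turned above 0 in edgeR on recovered reads. Within each library, the log2 ratio of Irf7 to Irf3 was -2.20, -2.37 and -2.26 in WT and -1.33, -1.26 and -1.69 in cKO. The shift of 0.85 gave p = 0.1 in a two-sided exact permutation test, the smallest that 3 against 3 libraries allows, and 0.3 adjusted over the 3 ratios examined.

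Irf9 (ENSMUSG00000002325), through which ISGF3 contacts DNA, was at 2709, 2405 and 2359 normalised reads in WT and 3165, 3023 and 2902 in cKO. The groups did not overlap, and WT replicate 1 was the nearest to the cKO libraries. The log2 difference of 0.28 ± 0.07, a ratio of 1.22 with an interval of 1.10 to 1.345, passed (limma adjusted p = 0.0232). The call was lost in limma fits without WT replicate 2, WT replicate 3, cKO replicate 1 or cKO replicate 3 (adjusted p = 0.0633, 0.1, 0.0613 and 0.0521), where the log2 difference was 0.26, 0.25, 0.25 and 0.315.

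Irf1 (ENSMUSG00000018899), an activator that interferon-γ induces, was at 3512, 2801 and 3360 in WT and 2582, 2829 and 2764 in cKO. WT replicate 2 lay within the cKO range, below cKO replicate 2. The ratio was 0.849 with an interval of 0.75 to 0.96, and it did not pass (limma adjusted p = 0.0888). It passed without WT replicate 2 (log2 difference -0.33, adjusted p = 0.0177) and with DESeq2 (-0.24, adjusted p = 0.0479). Irf2 (ENSMUSG00000031627), its antagonist at the shared element, was at 2846, 2668 and 2554 in WT and 2536, 2694 and 2247 in cKO, with overlapping groups (ratio 0.925, interval 0.828 to 1.03, adjusted p = 0.353). The log2 ratio of Irf1 to Irf2 was 0.30, 0.07 and 0.40 in WT and 0.03, 0.07 and 0.30 in cKO, which overlapped (shift -0.12, exact permutation p = 0.3).

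Of the lymphoid pair, Irf4 fell and Irf8 did not pass. Irf4 (ENSMUSG00000021356) was at 10152, 6740 and 11322 normalised reads in WT replicates 1, 2 and 3 and at 5122, 5174 and 6693 in cKO. WT replicate 2 was far below the other WT libraries and just above cKO replicate 3, so a narrow gap separated the groups. The log2 difference was -0.71 ± 0.16, a ratio of 0.612 with an interval of 0.476 to 0.786 (limma adjusted p = 0.0237). The call was lost without WT replicate 1, WT replicate 3 or cKO replicate 1 (adjusted p = 0.105, 0.0952 and 0.0549) and under robust moderation of the variances (0.16), and without WT replicate 2 the log2 difference was -0.93 (adjusted p = 0.00217).

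Irf8 (ENSMUSG00000041515), which acts in early B cell development and in the germinal centre, had the highest group means by reads (10887 in WT and 10493 in cKO), although Irf4 exceeded it in WT replicate 3. It was at 11573, 10699 and 10388 in WT and 10328, 10728 and 10422 in cKO. The groups overlapped, and the interval of the ratio, 0.885 to 1.05, lay above that of Irf4. The log2 ratio of Irf4 to Irf8 within a library was -0.19, -0.67 and 0.12 in WT and -1.01, -1.05 and -0.64 in cKO. WT replicate 2 fell among the cKO libraries (shift -0.66, exact permutation p = 0.2, where 0.1 is the smallest possible).

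**Figure D2:**
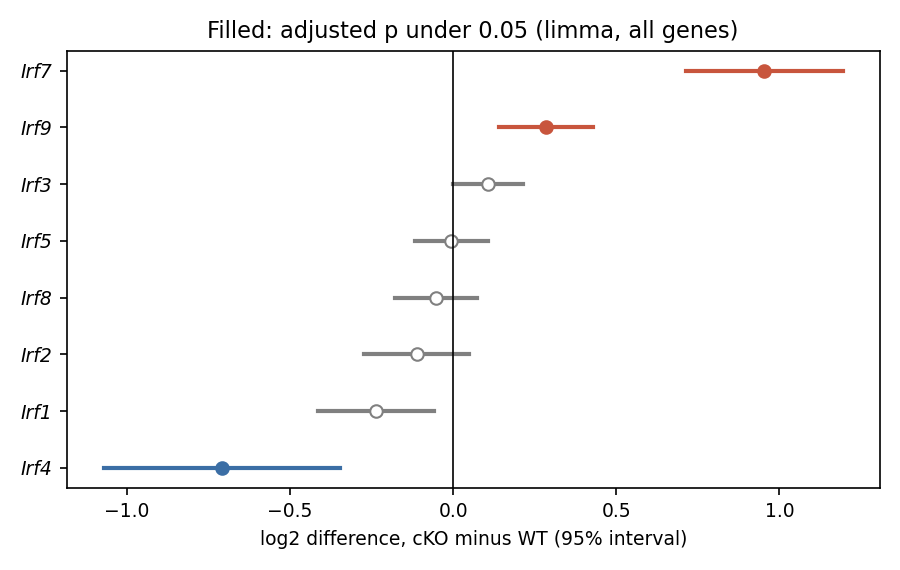
Log2 difference of each IRF gene, cKO minus WT (horizontal axis), with its 95% interval from limma, and filled points where the adjusted p is under 0.05. Irf7 (0.95) and Irf9 (0.28) lie to the right of 0 and Irf4 (-0.71) to the left.

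Levels can be set side by side between genes only per length, here as normalised reads per kilobase of merged GENCODE M21 exons. In WT the order was Irf5 (1985 ± 20.8, SD, n = 3), Irf4 (1918 ± 486), Irf8 (1543 ± 87.0), Irf3 (869.3 ± 11.2), Irf1 (810.9 ± 94.1), Irf9 (462.5 ± 35.3), Irf2 (363.7 ± 19.9) and Irf7 (163.8 ± 11.8). Irf5 and Irf4, Irf4 and Irf8, and Irf3 and Irf1 overlapped between libraries, while the other neighbours did not. In cKO, Irf4 (1155 ± 182) moved below Irf8 (1487 ± 29.6), with no overlap between them, and Irf7 (319.7 ± 50.3) reached the range of Irf2 (337 ± 30.6). Irf7 was lowest by mean in both groups. It made up 1.6% to 1.64% of the reads of the 8 members in each WT library and 2.82% to 3.88% in cKO, and Irf4 19.5% to 28.7% in WT and 14.9% to 19.1% in cKO.

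The genes around the family were described from fixed lists, by counts and medians. Of 22 genes of nucleic acid sensing upstream of IRF3, IRF5 and IRF7, 6 rose and 1 fell (median log2 difference 0.08). Tlr3, which senses double-stranded RNA in endosomes, was at 741.2, 790.4 and 920.5 normalised reads in WT and 2094, 1443 and 2137 in cKO (log2 difference 1.19 ± 0.14). The cytosolic RNA sensors Dhx58 (LGP2; 0.68 ± 0.09) and Ddx58 (RIG-I; 0.24 ± 0.05), the single-stranded RNA receptor Tlr7 (0.49 ± 0.11), the TLR3 adaptor Ticam1 (0.33 ± 0.09) and the DNA sensor Cgas (1.08 ± 0.275, from 25.4 ± 8.88 to 52.9 ± 4.18) also rose. Slc15a4, a lysosomal transporter required for TLR7 and TLR9 to reach IRF5, fell from 2688 ± 79.5 to 2289 ± 70.3 (-0.23 ± 0.05). The kinases that phosphorylate IRF3 and IRF7 did not pass, with log2 differences of -0.06 ± 0.05 for Tbk1 and 0.10 ± 0.08 for Ikbke, nor did the adaptors Myd88 (0.08) and Mavs (0.11). Leaving out a library gave 2 to 6 sensing genes that rose, with 2 without WT replicate 1 and 3 without WT replicate 2, WT replicate 3 or cKO replicate 3. Slc15a4 was no longer called without WT replicate 1, WT replicate 3, cKO replicate 1 or cKO replicate 3.

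The signalling partners of IRF9 did not pass the test. Of 10 genes of the interferon receptors, their kinases and STATs, 0 rose and 0 fell in limma, edgeR and DESeq2, while 1 was higher and 2 were lower at an unadjusted p under 0.05 in limma. Stat2, a subunit of ISGF3, was at 3919, 3580 and 3772 in WT and 3544, 3266 and 3414 in cKO, with every cKO library below every WT library (log2 difference -0.14 ± 0.06, limma adjusted p = 0.142). Ifnar1 gave -0.11 ± 0.07 and Ifnar2 -0.01 ± 0.07. None of the 12 interferon ligand genes on the list, Ifnb1 and Ifng among them, was in the table, so none could be tested.

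Of 29 ISRE target genes, 16 rose and 0 fell (median 0.34; at an unadjusted p under 0.05, 22 were higher and 1 lower, and 0 fell in edgeR or DESeq2 either). Ifi44 rose by 1.69 ± 0.30 on the log2 scale, Oas2 by 1.12 ± 0.14, Rtp4 by 0.95 ± 0.12, Oas1a by 0.67 ± 0.08, Oasl2 by 0.80 ± 0.11, Ifit3 by 0.81 ± 0.13 and Parp9 by 0.52 ± 0.07, whereas Rsad2 gave 0.06 ± 0.18 and Mx1 0.26 ± 0.10 without passing. Oas2, which activates RNA decay, was at 1102, 1074 and 976.2 in WT and 3058, 1961 and 2001 in cKO. Of the 16 called, 15 were highest in cKO replicate 1, but Irf7 was highest in cKO replicate 2. Without WT replicate 3, 7 rose, and without cKO replicate 2, 1 fell. A list of brakes on interferon signalling had 14 genes tested, and whether each restrains the pathway in these cells was not tested. Isg15 (0.68 ± 0.11), the mitochondrial regulator Nlrx1 (0.55 ± 0.14) and the RNA-editing enzyme Adar (0.20 ± 0.06) rose. Tnfaip3, a ubiquitin-editing inhibitor, fell (-0.49 ± 0.07). Usp18, which blocks the interferon receptor, gave 0.42 ± 0.13 (limma adjusted p = 0.05915). Without WT replicate 1, WT replicate 3, cKO replicate 1 or cKO replicate 2, 1 gene of this list rose.

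Of 20 IRF1 targets of antigen processing and guanylate-binding proteins, 3 rose and 0 fell (median 0.16; 11 higher and 2 lower at an unadjusted p under 0.05 in limma, 0 falling in edgeR and 1 in DESeq2). They were Gbp2 (0.54 ± 0.07), Gbp7 (0.37 ± 0.08) and Gbp3 (0.28 ± 0.07). The transporter gene Tap1 gave -0.03 ± 0.05 and the proteasome gene Psmb9 0.04 ± 0.06, and Nlrc5, the activator of class I genes, gave -0.24 ± 0.08 (adjusted p = 0.0852). Without WT replicate 1, WT replicate 3 or cKO replicate 3, 1 of the list rose.

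**Figure D3:**
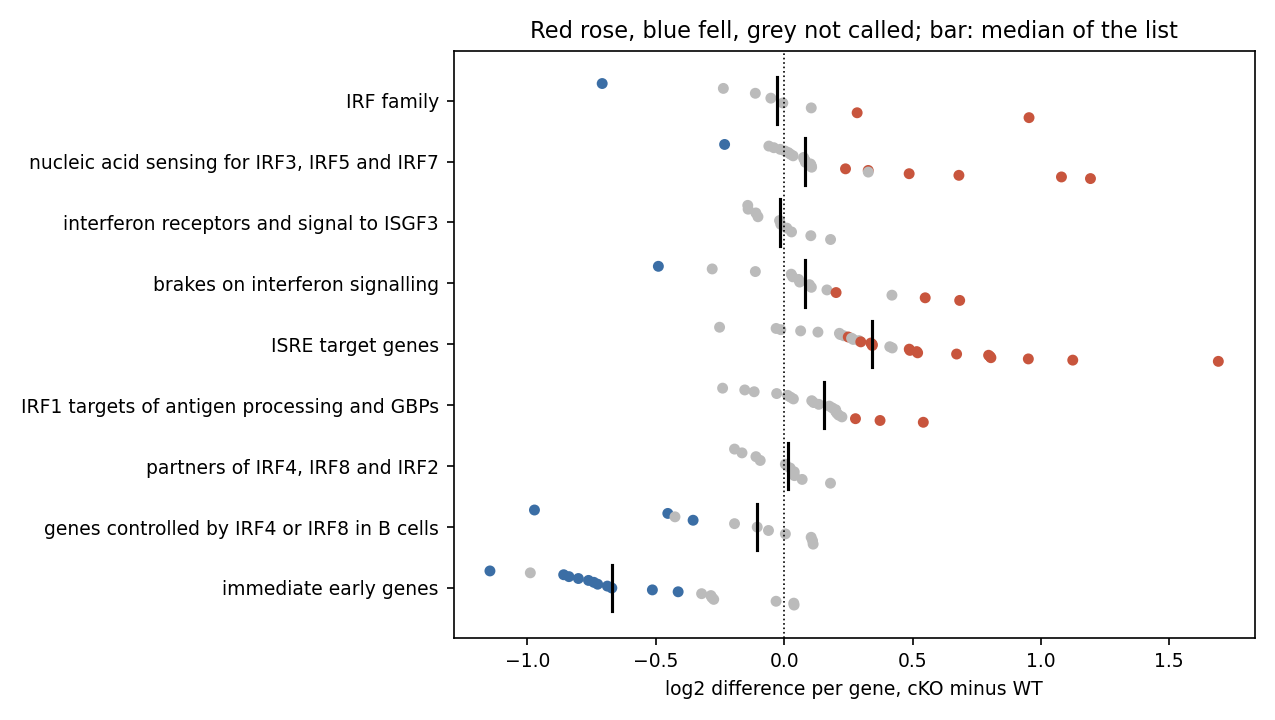
Log2 difference per gene, cKO minus WT (horizontal axis), for the 8 IRF genes and the 8 fixed lists with genes in the table (rows), red where a gene rose, blue where it fell and grey where it was not called, with a black bar at the median of each row. The ISRE targets lie mostly to the right of 0 (median 0.34), the immediate early genes mostly to the left (median -0.67), and the receptors and signal to ISGF3 around 0 (median -0.02).

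Of 10 tested partners of IRF4, IRF8 and IRF2, 0 rose and 0 fell in limma and edgeR, and 1 rose and 1 fell in DESeq2 (unadjusted p under 0.05 in limma, 1 higher and 2 lower). Spi1, which encodes PU.1, gave 0.04 ± 0.06 and Spib 0.18 ± 0.06 (adjusted p = 0.0843). Ikzf3, the Ikaros relative Aiolos, gave -0.19 ± 0.06 (adjusted p = 0.0595). Of 11 genes that IRF4 or IRF8 are known to control in B cells, 3 fell and 0 rose (median -0.11; 0 higher and 4 lower at an unadjusted p under 0.05, 0 rising in edgeR or DESeq2). Ciita, the master regulator of class II genes, was at 8207, 8266 and 7761 in WT and 6584, 6501 and 5883 in cKO (-0.35 ± 0.06, limma adjusted p = 0.005835), and its groups were well apart. Bcl6, the germinal centre repressor, gave -0.97 ± 0.22 and Myc -0.45 ± 0.12. Prdm1, the plasma cell regulator that IRF4 activates, was at 126.2 ± 16.2 and 136.6 ± 17.6 (0.11 ± 0.16). Without WT replicate 1, WT replicate 3 or cKO replicate 3, 1 of the 11 fell. The list does not separate genes that IRF4 or IRF8 activate from genes that they repress, so its counts do not show control by them. Ikzf1 and Ikzf3 are on this list and on that of the partners.

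Within WT, the library pattern of Irf4 resembled that of the mean of the immediate early genes, which respond in minutes to stimulation and to tissue handling. Of 19 tested, 11 fell and 0 rose in limma, with a median of -0.67. At an unadjusted p under 0.05 in limma, 15 were lower and 0 higher. In edgeR 12 fell and in DESeq2 9, and 0 rose in either. The AP-1 subunit gene Jun fell by 0.84 ± 0.13 on the log2 scale, Fos by 0.67 ± 0.10 and Fosb by 1.15 ± 0.18. The activation marker Cd69 fell by 0.80 ± 0.13 and the antigen receptor-responsive Nr4a1 by 0.76 ± 0.21. The groups of Nr4a1 overlapped, with WT replicate 2 (3225) below cKO replicate 2 (3266). Others of the list did not pass, among them Dusp1 (-0.03 ± 0.08), Btg2 (0.04 ± 0.10), Ier5 (0.04 ± 0.06) and Egr1 (-0.28 ± 0.24). For all 11 that fell, the lowest of the WT libraries was WT replicate 2. This also held for Irf4 and Irf1, and for Irf7 and Irf3, whose means were higher in cKO. The cKO libraries were less alike: Irf4 was highest in cKO replicate 3. Of the 11 genes, 6 were highest there, 3 in cKO replicate 2 and 2 in cKO replicate 1. The summed level of the list was 124293, 100731 and 124283 normalised reads in WT and 82398, 82322 and 83333 in cKO. The part of handling or stimulation in the fall of Irf4 was not tested. Without WT replicate 1, WT replicate 3 or cKO replicate 3, 5 of these genes fell, and without cKO replicate 1, 6.

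**Figure D4:**
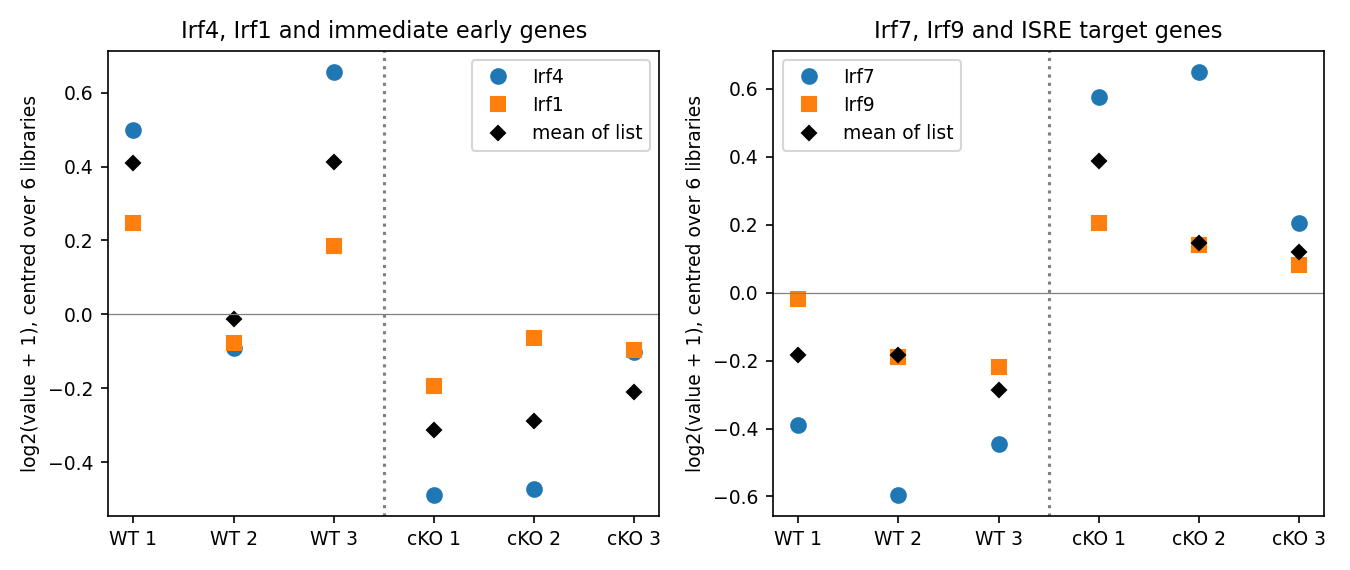
Log2(value + 1) centred over the 6 libraries (vertical axis) in each library, for Irf4 and Irf1 with the mean of the immediate early genes (left) and for Irf7 and Irf9 with the mean of the ISRE target genes (right). WT replicate 2 is at -0.09 for Irf4 and -0.01 for the immediate early genes, where the other WT libraries are at 0.41 to 0.66, and the mean of the ISRE targets is highest in cKO replicate 1 (0.39), where Irf7 is at 0.57.

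Among 10172 other named genes with a mean of at least 100, the profiles nearest to each changed member were ranked by the root mean square difference of centred log2 values over the 6 libraries, which share the groups being compared. Nearest to Irf4 were the lysosomal galactosidase gene Gla (0.08), the NF-κB regulators Nfkbid (0.08) and Nfkbiz (0.10), Trp53inp2 (0.12) and 4933423P22Rik (0.12). Nearest to Irf7 were Klf10 (0.11), the interferon-stimulated gene Oasl2 (0.15), Gfod1 (0.16), Dusp5 (0.17) and Vps26b (0.17). Nearest to Irf9 were Parp14 (0.04), another interferon-stimulated gene, with Ascc2, Agpat5, the DNA methyltransferase gene Dnmt3a and Hdlbp at 0.04 each. Likeness is a description here, ranked over many genes in few libraries.

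Other cells of the spleen express IRF genes highly, and in sorted cells fewer cells of a type and less RNA per cell cannot be told apart. Of 8 markers of plasmacytoid dendritic cells, a rich source of Irf7, 5 were in the table, with a summed level of 662.2 to 742.3 in WT and 747.9 to 839.6 in cKO, most of it Pacsin1. None of the 5 was called in limma or DESeq2, 1 rose in edgeR, and their median log2 difference was -0.45. Siglech, the defining one, was at 17.6, 4.22 and 8.80 in WT and 13.4, 14.2 and 18.6 in cKO. The log2 differences were 0.72 ± 0.46 for Siglech, 0.28 ± 0.08 for Pacsin1, -0.69 ± 0.27 for Ccr9, -0.79 ± 0.45 for Runx2 and -0.45 ± 0.57 for Lag3. The groups did not overlap for Pacsin1, with cKO higher, or for Ccr9, with cKO lower. The part of these cells in the rise of Irf7 was not tested. Of 9 markers of conventional dendritic cells, 5 were tested and 1 rose, Zbtb46, from 49.4 ± 13.2 in WT to 94.4 ± 7.82 in cKO (0.95 ± 0.23). Xcr1 (0.06 ± 0.40), Itgae (0.30 ± 0.43), Flt3 (-0.45 ± 0.21) and Itgax (-0.13 ± 0.15) did not pass. The summed level was 320.8 to 372 in WT and 307 to 432.3 in cKO. The part of conventional dendritic cells in the members' values was not tested. Macrophage and monocyte markers, 13 of 13 in the table, summed to 2087 to 3790 in WT and 1520 to 3116 in cKO, highest in WT replicate 2 and cKO replicate 1. Of 8 plasma cell markers, which accompany high Irf4, 7 were in the table, with 1 rising and 1 falling and a sum of 8993 to 9573 in WT and 9501 to 10188 in cKO. Mzb1 made up most of that sum (5641 ± 406 in WT, 6650 ± 392 in cKO), so the sum mostly gives the level of this 1 gene. Its origin in plasma cells or in the sorted cells was not tested. Mzb1 rose (0.24 ± 0.07) and Slamf7 fell (-0.53 ± 0.09). Jchain was at 373.3, 241.3 and 198.6 in WT and 154.2, 220.8 and 136.2 in cKO, with overlapping groups, and did not pass (-0.65 ± 0.23). Sdc1 (82.63 ± 14.54 in WT and 75.06 ± 52.95 in cKO, -0.38 ± 0.42), Prdm1 (0.11 ± 0.16), Xbp1 (-0.06 ± 0.09) and Derl3 (-0.05 ± 0.19) did not pass either. The part of plasma cells in the fall of Irf4 was not tested, nor was that of the follicular sum.

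Reads of overlapping genes could not be told apart without a stated strand setting. The exons of Irf5 share 411 of 2905 bases with Tnpo3 on the other strand, Irf1 shares 135 bases with Gm17334, Irf3 88 with Bcl2l12, Irf7 45 with Phrf1, and Irf9 123 with Rnf31 on the same strand. None of these 5 neighbours was called. The log2 difference was -0.63 ± 0.24 for Gm17334 and 0.15 ± 0.08 for Bcl2l12, each in the direction of its overlapping member and with groups that did not overlap. The groups of Tnpo3 did not overlap either, with cKO higher (0.09 ± 0.06), while those of Irf5 overlapped. The log2 difference was -0.03 ± 0.07 for Phrf1 and -0.07 ± 0.06 for Rnf31, whose groups overlapped. The part of shared reads in the members' values was not tested.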

How the data were processed

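RNA-seq of 6 libraries of sorted marginal zone B cells was used, 3 per group by the genotype in their titles. Per the submitters' processing notes, reads passed through bcl2fastq 2.17, Trimmomatic 0.36 and STAR 2.5.2b, and mm9 is the build named. How reads were counted (annotation, strand) and which tool normalized them is not stated in the sources used. The deposited signal consists of read counts per gene that the authors divided by 1 factor per library: 100% of values in each library were whole multiples of 1 read within 0.02 of a read. No gene had fewer than 61 recovered reads in all. GENCODE M21 named 14824 genes and left 40 without a name.

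From these values, limma 3.58.1 in R 4.3.3 (lmFit, eBayes with a trend) was run on log2(value + 1), two-sided, fitting genotype alone, for the 14855 genes whose mean reached 10. This scale understates the change of low genes. A gene rose or fell only where it was called, and a log2 difference is given ± its standard error. edgeR 4.0.16 and DESeq2 1.42.0 on recovered reads, other scalings, pseudocounts and filters, robust moderation, a replicate block and leaving out each library were alternatives, 16 in all. On simulated counts for this comparison (14707 genes), changes were placed only in genes with a mean of at least 100. There limma recovered 84.5% of 103 changes of 0.5 on the log2 scale and 100% of 97 changes of 1. Recovery in lower genes, or of changes smaller than 0.5, was not simulated. Members, lists and named genes were chosen with earlier results of these data known. From each list genes with the smallest adjusted p and genes with a role in the text were named, and not every called gene was. Libraries within a group differed beyond sampling noise (chi-square per gene 6.37 to 12.7), so none was counted as a repeat.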

Additional observations from a re-analysis of the deposited data

How the results depend on the processing

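Irf7 was called in all 16 alternatives. Irf9 and Irf4 were each called in 12 of 16. Irf4 lost its call under robust moderation (log2 difference -0.71). Leaving out each library in turn gave log2 differences of -0.93 to -0.56 for Irf4, 0.25 to 0.35 for Irf9, -0.33 to -0.17 for Irf1, -0.026 to 0.021 for Irf5, -0.17 to -0.04 for Irf2, 0.09 to 0.11 for Irf3, -0.08 to -0.0070 for Irf8 and 0.87 to 1.09 for Irf7. The value of Irf5 turned above 0 in edgeR (0.00019), without WT replicate 3 (0.00083) and without cKO replicate 1 (0.021). Irf1 passed with DESeq2 (-0.24), where 2 members fell, and under robust moderation 0 members fell. The members that rose numbered 1 to 2 and those that fell 0 to 2 with a library left out, and all genes that rose 243 to 785 and that fell 223 to 940. These fits have fewer samples.

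For the lists, leaving out a library gave 2 to 6 sensing genes that rose and 0 to 1 that fell, 1 to 2 brakes that rose, 7 to 19 ISRE targets that rose and 0 to 1 that fell, 1 to 4 IRF1 targets that rose, 1 to 3 genes under IRF4 or IRF8 that fell and 5 to 12 immediate early genes that fell. The replicate block gave 5 IRF1 targets that rose and 1 that fell, and changed no call of a member. Same-numbered libraries did not deviate together (correlations across genes of -0.07, -0.02 and 0.15), so the numbers were not taken to pair them. The ratio of Irf4 to Irf8 shifted by -0.87 to -0.47, that of Irf7 to Irf3 by 0.76 to 0.98 and that of Irf1 to Irf2 by -0.22 to -0.05 with a library left out.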
